A study of Mus musculus with 24 samples.

Results

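The 10 genes described here are 8 targets of the glucocorticoid receptor (Fkbp5, Zbtb16, Sgk1, Tsc22d3, Dusp1, Errfi1, Ddit4 and Cebpd) and the metallothioneins Mt1 and Mt2. They were found by their symbol in GENCODE M21 among the 54532 genes listed for every sample, and all 10 were present. RNA-Seq of polyA+ RNA was performed on 24 samples from Trex1-/- mice, 3 untreated controls and 3 SN-011 samples in each of 4 tissues (heart, stomach, muscle and tongue). Trex1 is a DNA exonuclease, and mice without it develop a lupus-like disease driven by the cGAS-STING pathway. SN-011 is an antagonist of STING. Every mouse, controls included, lacked Trex1 in the whole body, was of C57BL/6J background and was 1 month old when injections began. The labels give SN-011 at 5 mg/kg, 3 times a week for a duration of 4 weeks, with untreated controls. The methods of the study instead describe intraperitoneal injection every day, at a higher dose and over a shorter course, with controls given vehicle (Tween 80 in PBS). Either way SN-011 was compared with controls of the same genotype, and no wild-type mice are in these groups.

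Glucocorticoids such as corticosterone, the main adrenal steroid of the mouse, bind a receptor in the cytoplasm that then enters the nucleus and binds DNA at glucocorticoid response elements. Its targets include inhibitors of its own signal, brakes on kinases and inflammation, and genes that shift muscle and liver toward fasting metabolism. Metallothioneins are small cysteine-rich proteins that hold zinc and copper. Their genes respond to metals through the factor MTF1, which binds metal response elements, and also to glucocorticoids.

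Total counts were 14253416 to 18443329 per sample, and values are given as CPM (counts scaled to library size, here after TMM within a tissue). Summed markers of heart muscle, gastric epithelium and skeletal muscle were highest in the tissue of that name, and squamous markers in the tongue. The control sample numbered 1 (control 1) had 3060 to 13811 counts of the X-linked transcript Xist in each tissue, whereas the other samples had at most 20. Its counts of the Y-linked Ddx3y were at most 3, against at least 825 in the others, so control 1 differed from all other samples in sex. Muscle SN-011 sample 2 had counts on 11546 genes, against at least 19798 elsewhere. Trex1 itself had 0 counts in all samples, and its gene overlaps Atrip in the annotation, so the counts do not check the knockout. The labels do not say whether samples with 1 number in different tissues came from 1 mouse, and p-values measure the spread between these samples. Control 1 differed in sex in every tissue, so samples with 1 number may share a mouse. Counts over tissues may then repeat the same mice and are not independent support. The fit of all 24 samples treated them as separate.

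The first question was how the 10 genes differed between SN-011 and control in each tissue. Most of them were higher after SN-011 in most tissues. The 10 were chosen with earlier results of these data known, so the shares of all genes beside them are a description and not a test. Of 39 tests (Mt2 was too low in muscle), the log2 fold change was above 0 in 36, that is in 10, 7, 9 and 10 members in heart, stomach, muscle and tongue, where 48.6%, 50.2%, 44.5% and 48.5% of all genes were above 0. In 20 of the 40 gene and tissue pairs every SN-011 sample was above every control, and in 0 pairs was the reverse seen, where 13.1%, 15.2%, 19.8% and 8.38% of all genes showed the reverse. A single value passed the threshold of an adjusted p under 0.05 in the quasi-likelihood test of edgeR (Benjamini-Hochberg, all genes), that of Mt1 in the heart.

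In the heart, 1 of 10 members rose past that threshold and 0 fell, where 0.848% of the 16151 genes tested passed (0.52% higher and 0.328% lower). At an unadjusted p under 0.05, 7 of 10 were higher, against 10.8% of all genes, and the groups of 5 did not overlap, against 14.1%. Their median log2 fold change was 1.20, beside -0.01 over all genes tested. In the stomach 0 of 10 passed in edgeR's quasi-likelihood test, where 0% of 17031 genes did. There 5 were higher at an unadjusted p under 0.05 (13.2% of all genes) and 4 did not overlap (17.8%), with a median of 1.18 beside 0.00. DESeq2 and edgeR's exact test each passed 4 in the stomach, where they passed 14% and 10.8% of all genes, and in the heart 4 and 3, where they passed 8.43% and 5.68%.

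In muscle 0 of the 9 members tested passed in the edgeR fit, where 0.0141% of 14198 genes did (0.00704% higher and 0.00704% lower). At an unadjusted p under 0.05, 5 were higher (8.96% of all genes), and 6 did not overlap (14.7%), with a median of 1.34 beside -0.08. In the tongue 0 of 10 passed, where 0% of 16587 genes did. There 6 were higher at an unadjusted p under 0.05 (5.17% of all genes) and 5 did not overlap (9.4%), with a median of 0.78 beside -0.01. DESeq2 passed 4 members in muscle (6.2% of all genes) and 3 in the tongue (2.52%), and edgeR's exact test 3 (3.37%) and 2 (1.53%). No member was lower at an unadjusted p under 0.05 in any tissue. Of all genes, 11.6%, 11.4%, 5.8% and 7.33% were lower in heart, stomach, muscle and tongue. With 3 samples against 3, the exact permutation test of a single gene cannot give less than 0.10 two-sided.

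**Figure D1:**
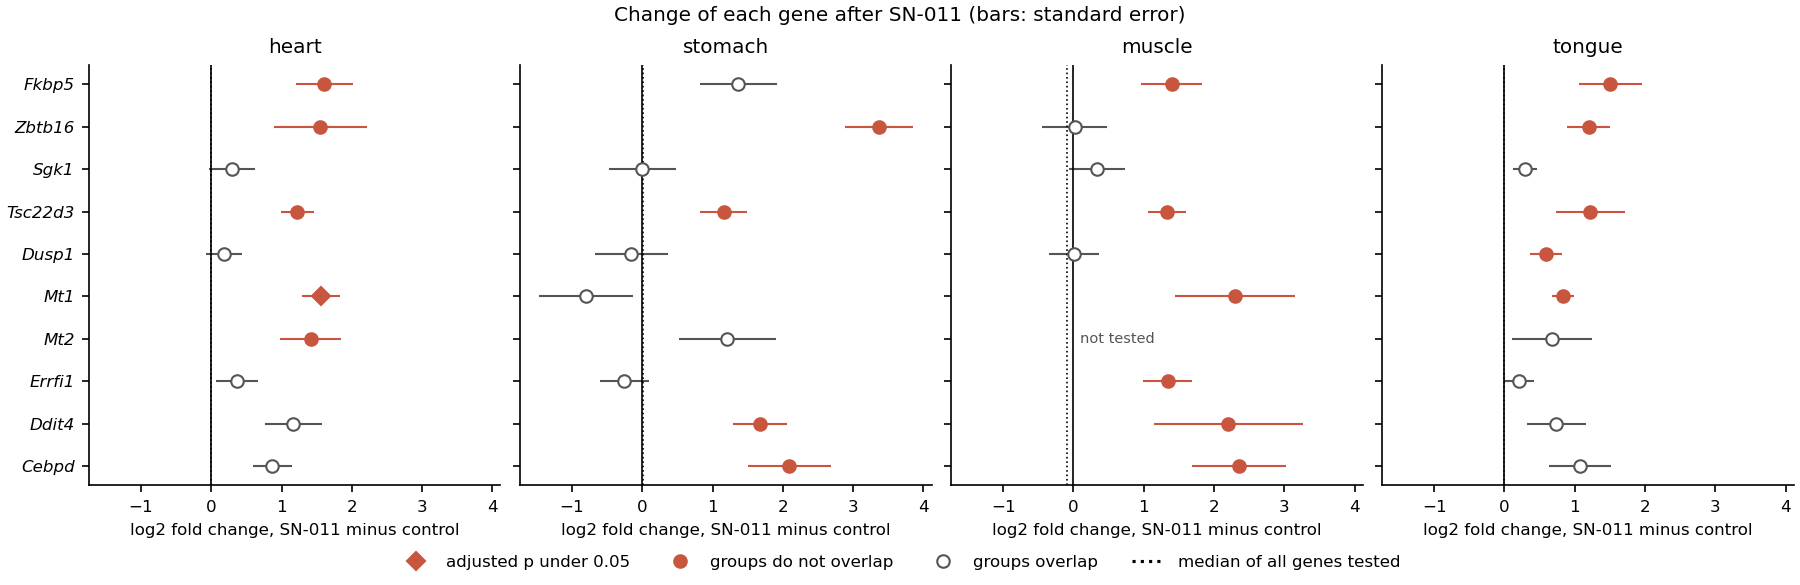
Log2 fold change of each of the 10 genes after SN-011 in each tissue (x axis), with bars for the standard error. Diamonds mark an adjusted p under 0.05, filled circles groups that do not overlap and open circles groups that do, and the dotted line is the median of all genes tested. Only Mt1 in the heart is a diamond. Tsc22d3 lies between 1.16 and 1.34 in all 4 tissues, whereas Sgk1 lies between 0.00 and 0.34.

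Fkbp5 encodes a co-chaperone of Hsp90 that lowers the affinity of the glucocorticoid receptor for its ligand. It lies on chr17:28399094-28517527, minus strand (GRCm38, as are all positions here). In the heart its controls 1, 2 and 3 had 109, 36.6 and 33.6 CPM, and its SN-011 samples 154, 184 and 209.8 CPM. All SN-011 hearts were above all controls, and control 1 stood well above the other controls. The log2 fold change was 1.61 (SE 0.41, edgeR adjusted p = 0.0876).

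The tongue looked alike for Fkbp5, with controls at 88.0, 31.0 and 25.8 CPM and SN-011 samples at 115, 144 and 152 CPM, again with no overlap. In muscle the controls had 218, 59.5 and 140.0 CPM and the SN-011 samples 401, 335 and 366 CPM. In the stomach the controls had 114, 32.7 and 26.7 CPM and the SN-011 samples 98.8, 186 and 163 CPM. The stomach groups overlapped, because control 1 was above SN-011 sample 1. The log2 fold changes were 1.51 in the tongue (SE 0.45, edgeR adjusted p = 0.308), 1.40 in muscle (SE 0.43, adjusted p = 0.241) and 1.37 in the stomach (SE 0.55, adjusted p = 0.177). Fkbp5 thus had a mean 2.58 to 3.05 times that of controls in every tissue, with unadjusted p under 0.05 in all 4 and the adjusted threshold passed in none.

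Tsc22d3 encodes GILZ, a leucine zipper protein that restrains AP-1 and NF-kB. It lies on chrX:140539528-140600659, minus strand, and was the only one of the 10 whose groups did not overlap in any tissue. In the heart the controls had 227, 179.6 and 116 CPM and the SN-011 samples 338, 433 and 452 CPM. In the stomach they had 171, 109 and 85.4 CPM against 223, 314 and 279 CPM. Control 1 was the highest control in both tissues and still below every SN-011 sample.

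In muscle the controls of Tsc22d3 had 422, 262 and 207 CPM and the SN-011 samples 683, 827 and 739.9 CPM. In the tongue the controls had 321, 135 and 76.9 CPM and the SN-011 samples 324, 394 and 527 CPM, so control 1 lay just under the lowest SN-011 tongue. The log2 fold changes were 1.23 (SE 0.23, edgeR adjusted p = 0.0543) in the heart, 1.16 (SE 0.33, adjusted p = 0.101) in the stomach, 1.34 (SE 0.27, adjusted p = 0.137) in muscle and 1.22 (SE 0.49, adjusted p = 0.384) in the tongue. These 4 changes were close in size, and the largest tissue difference of Tsc22d3, stomach minus muscle, was -0.13 (SE 0.55). In fits that left out 1 sample, the edgeR adjusted p of Tsc22d3 ran from 0.0375 to 0.235 in the heart, passing without control 1 or 2 (0.0375 and 0.0442), and from 0.0430 to 0.564 in muscle, passing without control 1 or SN-011 sample 2 (0.0430 and 0.0471). It did not pass in the other 4 fits of either tissue.

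Zbtb16 encodes PLZF, a zinc finger repressor of transcription, and lies on chr9:48654297-48836222, minus strand. In the stomach its controls had 1.05, 0.437 and 0.963 CPM and its SN-011 samples 9.13, 7.65 and 8.60 CPM. The groups were far apart, and here control 1 was close to control 3. These values rest on 13, 7 and 18 counts in controls and 155, 116 and 140 in SN-011 samples. The mean was 10.4 times that of controls, with a log2 fold change of 3.37 (SE 0.48, edgeR adjusted p = 0.0618), the largest of the 39.

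In the heart the controls of Zbtb16 had 47.9, 9.25 and 4.92 CPM and the SN-011 samples 69.9, 52.7 and 59.8 CPM, with control 1 near the SN-011 samples and the other controls far below. In the tongue they had 17.4, 9.52 and 8.12 CPM against 24.7, 33.0 and 22.7 CPM, with no overlap. In muscle they had 72.8, 49.3 and 50.3 CPM against 70.6, 22.2 and 81.4 CPM. The muscle groups overlapped, and SN-011 sample 2 was the lowest of the 6. The log2 fold changes were 1.55 (SE 0.66, edgeR adjusted p = 0.211) in the heart, 1.20 (SE 0.31, adjusted p = 0.281) in the tongue and 0.02 (SE 0.46, adjusted p = 0.988) in muscle. The muscle value was below 0 with library size alone (-0.19) and with DESeq2 (-0.03), and 0.40 without SN-011 sample 2.

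**Figure D2:**
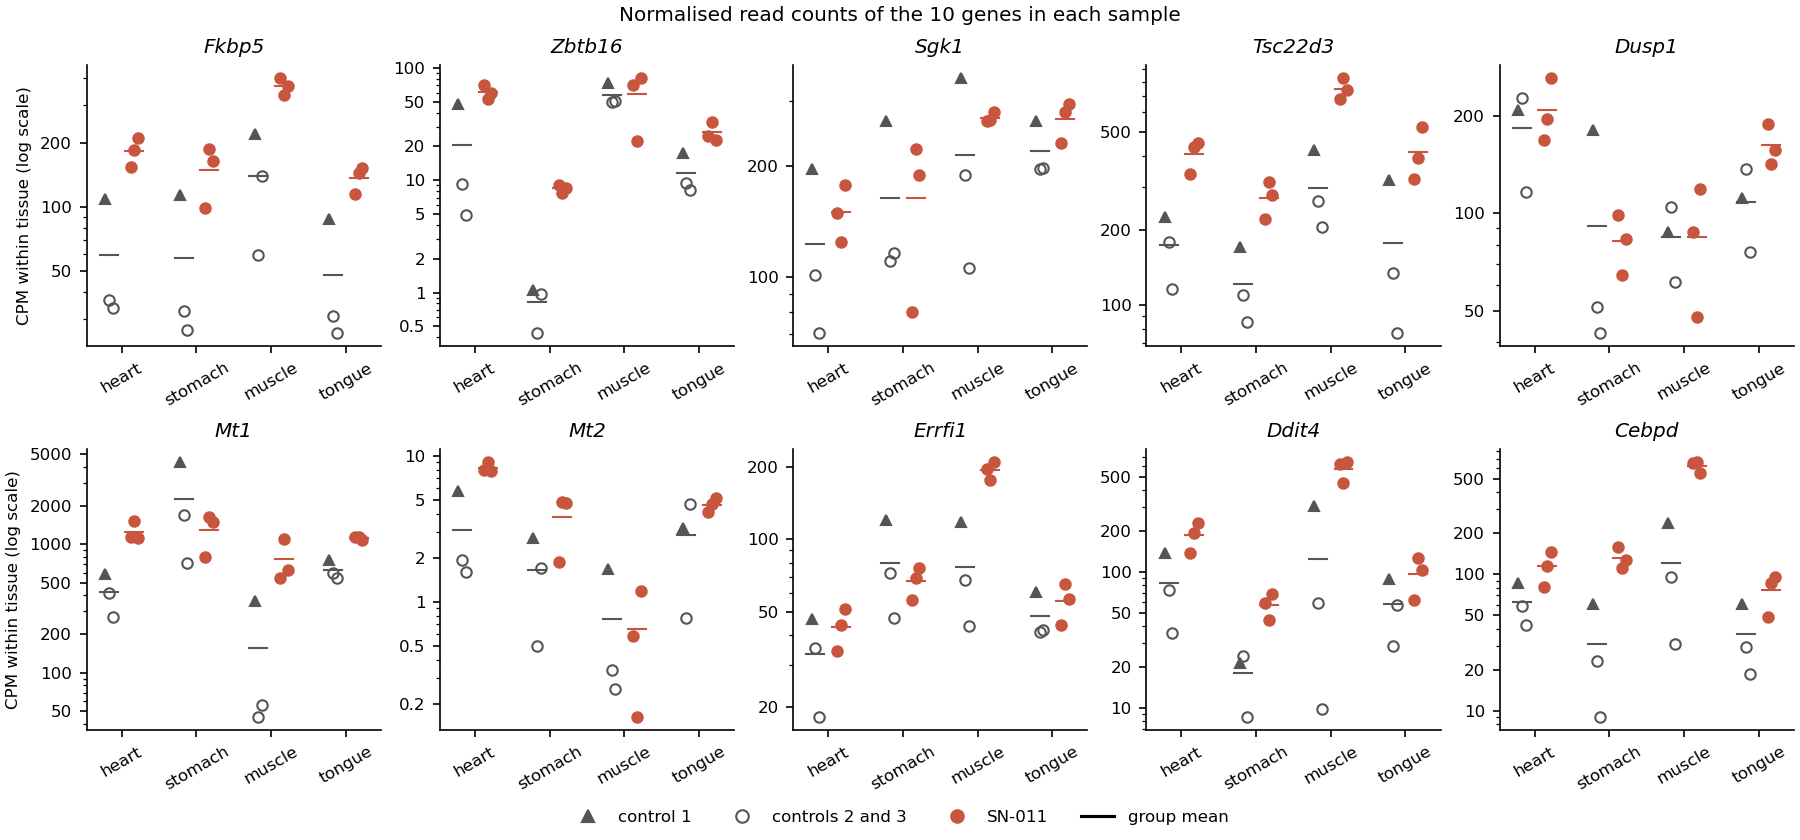
CPM of the 10 genes in each sample, on a log scale, by tissue. Triangles are control 1, open circles controls 2 and 3, filled circles SN-011 samples, and lines the group means. Control 1 is the highest control in 35 of the 40 gene and tissue pairs. The SN-011 stomachs of Zbtb16, at 7.65 to 9.13 CPM, lie apart from their controls, at 0.437 to 1.05 CPM.

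Sgk1 and Dusp1 had smaller fold changes than most members with all controls in the fit. Sgk1 encodes a kinase that promotes sodium uptake and is a textbook target of both the glucocorticoid and the mineralocorticoid receptor (chr10:21882184-21999903, plus strand). Its groups overlapped in all 4 tissues. In the stomach the controls had 265, 111 and 116 CPM and the SN-011 samples 80.4, 222 and 189 CPM, with control 1 the highest and SN-011 sample 1 the lowest of the 6. In the heart the controls ranged from 70.4 to 196 CPM and the SN-011 samples from 124 to 178 CPM, in muscle from 106 to 346 and 264 to 279.6 CPM. Tongue controls had 196 to 265 CPM and SN-011 tongues 231 to 294 CPM. The log2 fold changes were 0.29 (SE 0.32) in the heart, 0.00 (SE 0.47) in the stomach, 0.34 (SE 0.40) in muscle and 0.29 (SE 0.17) in the tongue, with edgeR adjusted p from 0.496 to 0.999. The stomach value was slightly below 0 with DESeq2's size factors. Without control 1 the log2 fold changes of Sgk1 were 0.80, 0.51, 0.87 and 0.45 in heart, stomach, muscle and tongue (edgeR adjusted p = 0.0972, 0.485, 0.270 and 0.0736).

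Dusp1 encodes a phosphatase that switches off p38 and JNK, and lies on chr17:26505590-26562128, minus strand. In the heart its controls ranged from 117 to 227 CPM and its SN-011 samples from 168 to 262 CPM, and in muscle from 61.5 to 105 CPM and 47.8 to 119 CPM. Both pairs of groups overlapped, as did those of the stomach, where control 1 at 181 CPM was above all other samples (42.7 to 98.9 CPM). Only in the tongue did the groups of Dusp1 not overlap, with controls at 111, 137 and 76.2 CPM and SN-011 samples at 188, 142 and 157 CPM (log2 fold change 0.59, SE 0.23, edgeR adjusted p = 0.373). In the other tissues it was 0.18 in the heart, -0.15 in the stomach and 0.01 in muscle. The stomach and muscle signs of Dusp1 turned with library size alone as the scaling. The stomach value was also above 0 without control 1 (0.77, edgeR adjusted p = 0.126) and with the replicate block (0.14). Dusp1 shares 11 of its 3311 exonic bases with Ergic1 on the other strand.

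The promoters of Sgk1 and Tsc22d3 are shown because they hold the receptor's half-site. Windows from 250 bases before to 50 after each start in RefSeq (GRCm38.p6) were searched on both strands, and 8 of the 10 members matched, with 16 windows. Zbtb16 and Cebpd are only named. The half-site searched was AGAACA and the full element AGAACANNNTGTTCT, which contains a half-site on each strand. A half-site stood in 4 of the 16 windows (25%), in Sgk1 and Tsc22d3, and in 19% of all 32851 windows. The full element stood in 1 of the 6 Sgk1 windows, 189 bases before the start, and in 3 of the 32851 windows (0.00913%). These stretches run to 30 bases after the start, with matches in capitals, from chr10:21993640-21993919 (plus strand) and chrX:140600493-140600772 (minus strand).
Sgk1: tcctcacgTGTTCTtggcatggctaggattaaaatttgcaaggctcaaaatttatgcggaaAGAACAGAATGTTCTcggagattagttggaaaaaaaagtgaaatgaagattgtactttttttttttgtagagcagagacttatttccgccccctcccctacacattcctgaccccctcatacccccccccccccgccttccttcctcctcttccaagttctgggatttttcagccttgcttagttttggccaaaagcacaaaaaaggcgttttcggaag
Tsc22d3: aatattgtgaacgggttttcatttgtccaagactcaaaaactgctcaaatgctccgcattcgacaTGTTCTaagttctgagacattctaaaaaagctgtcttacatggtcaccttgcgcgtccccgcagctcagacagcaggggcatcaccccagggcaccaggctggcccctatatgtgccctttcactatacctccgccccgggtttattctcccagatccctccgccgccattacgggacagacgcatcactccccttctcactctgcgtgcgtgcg
A match is only a match of letters, and elements outside these windows were not searched.

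Mt1, the most abundant of the 10 genes by CPM in the heart, stomach and tongue, lies on chr8:94179082-94180327, plus strand. In the heart its controls had 584, 418 and 273 CPM and its SN-011 samples 1134, 1514 and 1108 CPM. The groups were well apart, the lowest SN-011 heart standing above the highest control. Mt1 rose there with a log2 fold change of 1.56 (SE 0.27, edgeR adjusted p = 0.0403), from a mean of 425 ± 156 to 1252 ± 227 CPM (SD, n = 3). The call was lost without control 3 (adjusted p = 0.0689) and without SN-011 sample 1, 2 or 3 (0.163, 0.198 and 0.0910), all with the same direction (1.31 to 1.63). It was also lost in the joint fit of all 24 samples (1.55, edgeR adjusted p = 0.641).

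In muscle the controls of Mt1 had 362, 45.3 and 55.6 CPM and the SN-011 samples 545, 1104 and 634 CPM. In the tongue they had 758, 592 and 545 CPM against 1140.0, 1139.9 and 1085 CPM. Neither pair overlapped, and in muscle control 1 was 7.18 times the mean of the other controls. The log2 fold changes were 2.30 (SE 0.86, edgeR adjusted p = 0.300) and 0.83 (SE 0.16, adjusted p = 0.263). The stomach differed, with controls at 4379.6, 1701 and 715 CPM and SN-011 samples at 789, 1627 and 1477 CPM. There the SN-011 samples lay inside the range of the controls, and the log2 fold change was -0.80 (SE 0.67, edgeR adjusted p = 0.485), or 0.08 without control 1. Summed markers of gastric epithelium in these stomachs were 95403, 48278 and 28462 CPM in controls and 5682, 35155 and 24526 CPM in SN-011 samples. Within each group Mt1 had the same order as these sums, and the part of tissue content in its values was not tested.

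Mt2, the neighbour of Mt1 on chr8:94172664-94173568, had much lower counts. It had 1.60 to 5.71 CPM in control hearts and 7.82 to 9.08 CPM in SN-011 hearts, which did not overlap (log2 fold change 1.41, SE 0.44, edgeR adjusted p = 0.120). In the stomach the ranges were 0.499 to 2.74 and 1.89 to 4.81 CPM, and in the tongue 0.777 to 4.68 and 4.12 to 5.11 CPM, both with overlap. Muscle had 5 to 32 counts per control and 2 to 21 per SN-011 sample, and was not tested. Of the 588 exonic bases of Mt2, 432 (73.5%) are shared with the antisense gene Gm45774, which had 0 to 84 counts per sample. The setting for strand in the counting is not given in the sources used here, so reads of Mt2 and Gm45774 may not have been told apart, and the level of Mt2 is uncertain.

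The promoters of the metallothioneins are shown for their metal response elements, searched as TGCACNC and TGCGCNC on both strands. Such an element stood in 25.7% of all windows, and 4 or more stood in 0.517%. The Mt2 window held 4, at 223, 128 and 50 bases before and 4 bases after the start, and the Mt1 window held 3, at 23 bases before and 2 and 20 bases after. Dusp1, Ddit4 and 1 Sgk1 window held 1 each. The stretches printed are chr8:94178839-94179118 and chr8:94172368-94172647 (RefSeq, GRCm38.p6, plus strand), with the elements in capitals.
Mt1: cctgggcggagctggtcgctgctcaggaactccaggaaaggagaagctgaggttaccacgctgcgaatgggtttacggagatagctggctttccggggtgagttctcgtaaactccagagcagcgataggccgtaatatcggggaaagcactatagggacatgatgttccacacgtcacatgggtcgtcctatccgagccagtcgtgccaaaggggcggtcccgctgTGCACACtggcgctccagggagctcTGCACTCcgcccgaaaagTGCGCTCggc
Mt2: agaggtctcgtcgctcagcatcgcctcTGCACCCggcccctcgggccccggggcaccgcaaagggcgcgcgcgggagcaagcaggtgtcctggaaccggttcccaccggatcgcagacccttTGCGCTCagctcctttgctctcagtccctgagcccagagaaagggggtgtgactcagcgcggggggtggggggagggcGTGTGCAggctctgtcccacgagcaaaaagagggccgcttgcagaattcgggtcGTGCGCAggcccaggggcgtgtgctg
No glucocorticoid half-site was found in either window.

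Errfi1, Ddit4 and Cebpd encode inhibitors of signalling and a transcription factor. Errfi1 (MIG6, chr4:150853919-150868892, plus strand) inhibits the EGF receptor. In muscle its controls had 118, 67.8 and 43.8 CPM and its SN-011 samples 196, 176 and 210.0 CPM, with no overlap (log2 fold change 1.34, SE 0.35, edgeR adjusted p = 0.199). In the heart, stomach and tongue the groups overlapped, with log2 fold changes of 0.37 (SE 0.30), -0.25 (SE 0.35) and 0.21 (SE 0.21). The stomach sign turned without control 1 and with library size alone.

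Ddit4 (REDD1, chr10:59949669-59951834, minus strand) inhibits mTORC1, and is also a gene of the hypoxia response. In muscle its controls spread from 302 through 58.4 to 9.73 CPM, and its SN-011 samples had 619, 445 and 642 CPM. In the stomach the controls had 21.1, 23.9 and 8.56 CPM and the SN-011 samples 58.6, 44.3 and 68.0 CPM. Neither pair overlapped, and the muscle controls were the most uneven of any member. The log2 fold changes were 2.21 (SE 1.06, edgeR adjusted p = 0.400) and 1.67 (SE 0.39, adjusted p = 0.0758). Without control 1 they were 4.06 in muscle (edgeR adjusted p = 0.147) and 1.78 in the stomach (adjusted p = 0.0829). In the heart (1.17, SE 0.41) and tongue (0.74, SE 0.42) control 1 overlapped the SN-011 samples.

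Cebpd (C/EBP delta, chr16:15887286-15891031, plus strand) encodes a transcription factor of the acute phase response. In muscle its controls had 236, 95.3 and 30.9 CPM and its SN-011 samples 644, 662 and 553 CPM. In the stomach the controls had 61.1, 23.1 and 9.09 CPM and the SN-011 samples 159, 111 and 126 CPM. Both pairs of groups were apart, with log2 fold changes of 2.36 (SE 0.67, edgeR adjusted p = 0.222) and 2.09 (SE 0.59, adjusted p = 0.0989). Without control 1 they were 3.29 in muscle (edgeR adjusted p = 0.0988) and 3.01 in the stomach (adjusted p = 0.0571). In the heart (0.87, SE 0.28) and tongue (1.07, SE 0.44) the groups overlapped through control 1. Cebpd shares 562 of its 3746 exonic bases (15%) with Spidr on the other strand, which had 0 to 96 counts per sample.

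The second question was whether the change of a member differed between tissues. Of 60 differences (10 genes over 6 pairs of tissues), 2 passed an adjusted p of 0.05 in the joint edgeR fit of 24 samples, both between stomach and muscle, a pair where 6.95% of 19731 genes did. The share was 2.01% for heart and stomach, 0.821% for stomach and tongue, 0.0355% for muscle and tongue, 0.00507% for heart and muscle and 0% for heart and tongue. Zbtb16 changed more in the stomach than in muscle, by 3.36 on the log2 scale (SE 0.90, edgeR adjusted p = 0.0305). Mt1 went the other way, with a stomach change below the muscle change, the difference being -3.05 (SE 0.88, edgeR adjusted p = 0.0419). The part of gastric content in the stomach values of Mt1 was not tested. The call held in 18 of 24 fits without 1 library for Zbtb16 (2.94 to 3.71) and in 7 of 24 for Mt1 (-4.64 to -2.12), and neither changed sign. Without the 4 controls numbered 1, a setting added after the data were seen, the differences were 3.38 (edgeR adjusted p = 0.00976) and -3.70 (adjusted p = 9.5e-04).

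**Figure D3:**
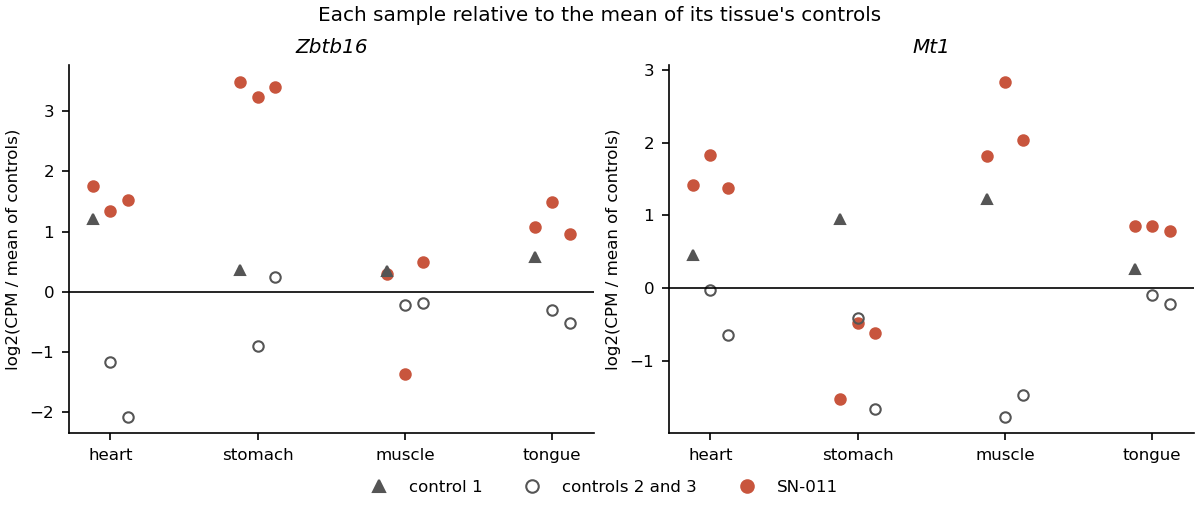
Log2 ratio of each sample's CPM to the mean of its tissue's controls for Zbtb16 and Mt1. Triangles are control 1, open circles controls 2 and 3, and filled circles SN-011 samples. The SN-011 stomachs of Zbtb16 lie above all its controls (10.4 times the control mean) while those of muscle straddle them (1.01 times), and for Mt1 the SN-011 stomachs lie among the controls (0.573 times) while those of muscle lie above them (4.93 times).

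The controls were uneven for most members. Control 1 was the highest control for 9 of 10 members in the heart, 9 of 10 in the stomach, 9 of 10 in muscle and 8 of 10 in the tongue, beside 32.2%, 36.8%, 38.4% and 41.2% of all genes. It is also the control that differs in sex. Without it, 5 members passed the threshold in the heart (Tsc22d3, Mt2, Mt1, Zbtb16 and Fkbp5), where 0.638% of genes passed higher. In the tongue 5 passed (Tsc22d3, Mt1, Zbtb16, Cebpd and Fkbp5; 4.41% of genes), in muscle 2 (Tsc22d3 and Mt1; 0.398%) and in the stomach 1 (Zbtb16; 0.29%).

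Without control 1 the log2 fold change of Fkbp5 was 2.36 in the heart (SE 0.17, edgeR adjusted p = 0.00645) and 2.27 in the tongue (SE 0.17, adjusted p = 7.9e-04). That of Zbtb16 in the heart was 3.10 (SE 0.27, edgeR adjusted p = 0.0148), and that of Mt1 in muscle 3.91 (SE 0.40, adjusted p = 0.0430). Sgk1 and Dusp1 passed in no tissue in that fit, with adjusted p from 0.0736 to 0.985. With 1 such control per tissue, its sex and any other difference of that sample cannot be told apart.

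**Figure D4:**
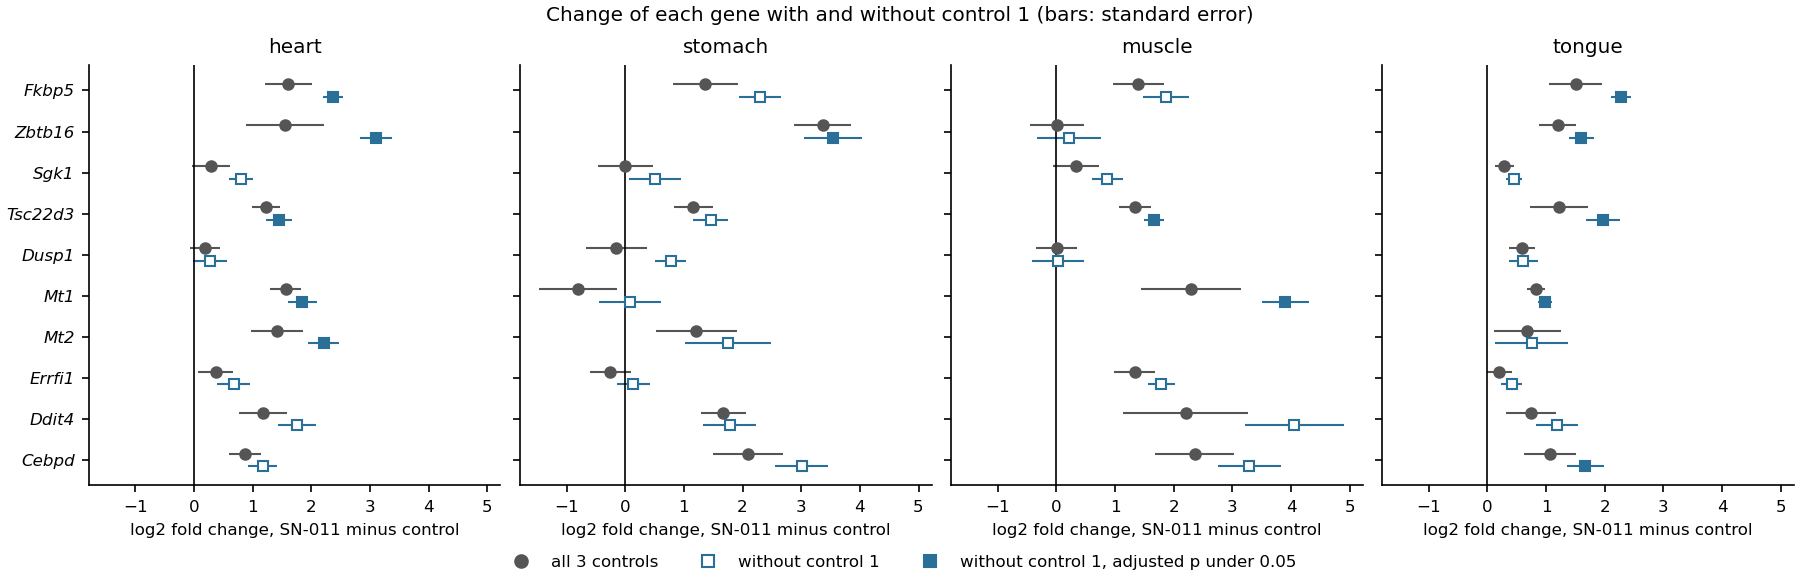
Log2 fold change of each gene with all 3 controls (circles) and without control 1 (squares, filled for an adjusted p under 0.05), with bars for the standard error. The squares lie at or to the right of the circles for every gene tested, and 13 squares are filled.

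The level of each member differed by tissue, compared here as CPM per kilobase of exon after TMM scaling over all 24 samples. In SN-011 samples Tsc22d3 had 267 ± 11.3 CPM per kilobase in muscle (SD, n = 3), 83.8 ± 12.5 in the heart, 80.7 ± 19.2 in the tongue and 51.0 ± 8.99 in the stomach. Muscle stood apart from the heart, heart and tongue overlapped, and the stomach was below both. Muscle was likewise first, and apart from the second tissue, for Fkbp5, Sgk1, Errfi1, Ddit4 and Cebpd in SN-011 samples, with 60.5 ± 10.7, 85.5 ± 9.74, 84.5 ± 15.1, 509 ± 139.8 and 256 ± 23.2 CPM per kilobase. Zbtb16 was lowest in the stomach, at 1.30 ± 0.105 CPM per kilobase, which was apart from the tongue at 4.29 ± 0.888.

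The means of Mt1 after SN-011 were closer together, with 923 ± 260.4 CPM per kilobase in muscle, 896 ± 165 in the heart, 849.6 ± 298 in the stomach and 762 ± 28.4 in the tongue. Each tissue overlapped with the next in that order, while the lowest SN-011 heart (792) was above the highest SN-011 tongue (781). In controls its means ran from 201 ± 232 in muscle to 1541 ± 1322 in the stomach, where neighbours in the order overlapped too. Dusp1 was highest in the heart in both groups (49.8 ± 15.9 and 56.2 ± 12.9 CPM per kilobase), overlapping with the next tissue each time.

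Genes with a like pattern were ranked by Pearson's r of log2 CPM over the 24 samples, centred on each tissue, among genes of at least 5 CPM. These r values are a description, since the samples share libraries and treatment. Fkbp5 was most like Tsc22d3 (r = 0.93), and Ube2g2 was also near it (0.92). Tsc22d3 was nearest to Klf15 (0.95), Sorbs3 (0.95) and Car4 (0.93), and Cebpd to Gadd45g (0.93), Ipo13 (0.93) and Sorbs3 (0.93). Ddit4 was nearest to Map3k6 (0.93), Pim3 (0.93) and Cebpd (0.90), and Mt1 to Glul (0.92), Psmd4 (0.92) and Pnpla2 (0.91).

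Errfi1 was nearest to Wbp1l and Bcl2l1 (both 0.90) and Psmd4 (0.89), and Zbtb16 to Nkiras1 (0.91), Pdlim3 (0.88) and Tns1 (0.87). The highest r were lower for Dusp1 (Rps10-ps1, Pithd1 and Pacs1, 0.80 to 0.79), Sgk1 (Tcim, Errfi1 and Bcl2l1, 0.79 to 0.76) and Mt2 (Mgll, Skiv2l and Rpl13a, 0.78 to 0.75). Between members, Mt1 and Errfi1 had r = 0.87, whereas Mt1 and Mt2 had 0.38 and Zbtb16 and Mt1 had 0.17.

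A list of 25 other glucocorticoid targets, also chosen with earlier results of these data known, was counted beside the members. In the heart 5 of the 24 tested passed the adjusted threshold, all higher, and 13 were higher and 1 lower at an unadjusted p under 0.05 (all genes 10.8% and 11.6%). Their median log2 fold change was 0.67. The 5 were Sesn1, a brake on mTORC1 (log2 fold change 1.16, edgeR adjusted p = 0.0111), Klf15, a regulator of amino acid use (1.25, 0.0182), Trim63, a ubiquitin ligase of muscle atrophy (1.31, 0.0281), Lpin1, an enzyme of lipid synthesis (0.82, 0.0383), and Glul, glutamine synthetase (1.12, 0.0383). All 5 calls were lost without SN-011 sample 1, 2 or 3 and in the joint fit, with the direction kept. Those of Glul, Lpin1 and Trim63 were also lost without control 3, and that of Trim63 without control 1. With 1 sample left out, the highest edgeR adjusted p of the 5 were 0.105 for Sesn1, 0.147 for Klf15, 0.169 for Trim63 and 0.198 for Lpin1 and Glul. Klf15 had 39.1, 31.2 and 27.5 CPM in control hearts and 70.9, 84.9 and 76.2 CPM in SN-011 hearts, which were all higher.

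In the stomach 0 of 25 passed in edgeR's quasi-likelihood test, while 15 were higher and 0 lower at an unadjusted p under 0.05 (13.2% and 11.4% of all genes), with a median of 1.39. The smallest p there were those of Angptl4 (2.74, edgeR adjusted p = 0.0618), Pdk4 (2.33, 0.0618), Map3k6 (2.33, 0.0618) and Klf9 (1.58, 0.0648). In muscle 14 of 24 were higher and 1 lower (8.96% and 5.8% of all genes), with a median of 1.08, led by Klf15 (1.42), Sesn1 (2.09), Fbxo32 (1.30) and Glul (1.78). In the tongue 8 of 24 were higher and 2 lower (5.17% and 7.33%), with a median of 0.59. The 2 lower were Crispld2 (-2.29, edgeR adjusted p = 0.273) and Nfkbia (-0.52, adjusted p = 0.278), the inhibitor of NF-kB. No gene of the list passed the adjusted threshold in muscle or tongue.

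**Figure D5:**
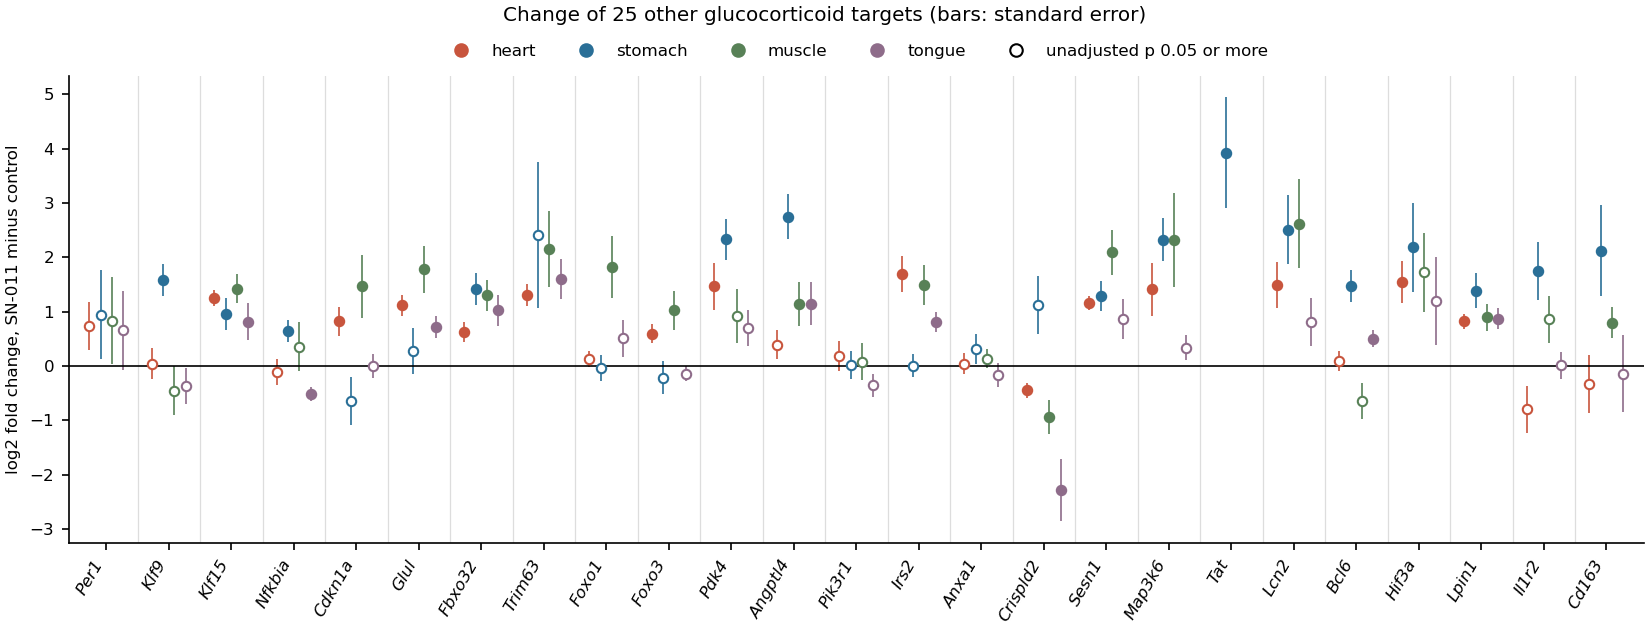
Log2 fold change after SN-011 of 25 other glucocorticoid targets in the 4 tissues, with bars for the standard error. Filled points have an unadjusted p under 0.05. Most filled points lie above 0, and Crispld2 lies below 0 in heart, muscle and tongue.

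Among receptors and steroid handling genes, Nr3c1, the glucocorticoid receptor, fell in the heart. Its controls had 61.4, 67.3 and 66.5 CPM and its SN-011 samples 43.5, 41.8 and 38.7 CPM, with no overlap (log2 fold change -0.66, edgeR adjusted p = 0.0308). The call was lost without control 3, without SN-011 sample 1, 2 or 3 and in the joint fit, with edgeR adjusted p up to 0.189 with 1 sample left out and values of -0.71 to -0.63. In the stomach, muscle and tongue its log2 fold changes were -0.23, 0.05 and -0.42, with edgeR adjusted p of 0.618, 0.899 and 0.399. Nr3c2, the mineralocorticoid receptor, was at -0.86, -0.90, -1.08 and -1.24 in heart, stomach, muscle and tongue, with edgeR adjusted p of 0.0892, 0.161, 0.222 and 0.271 and no overlap in any tissue. Of the 13 genes, 12 were tested in the heart, with 1 past the threshold (0.848% of all genes) and a median of 0.07. At an unadjusted p under 0.05, 0 were higher and 2 lower there (10.8% and 11.6% of all genes). In the stomach it was 0 and 1 of 13 (13.2% and 11.4%), and in muscle 3 and 2 of 12 (8.96% and 5.8%). In the tongue it was 0 and 3 of 12 (5.17% and 7.33%). The medians were -0.25 in the stomach, 0.20 in muscle and -0.11 in the tongue. Log2 fold changes above 0 numbered 6, 2, 8 and 3 in heart, stomach, muscle and tongue.

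Among 12 genes of metal handling, 0 passed the threshold of edgeR in any tissue. Their median log2 fold changes were 0.01, 0.07, -0.35 and -0.21 in heart, stomach, muscle and tongue, with 6, 6, 3 and 5 genes above 0. At an unadjusted p under 0.05, 0 were higher and 1 lower of 11 tested in the heart (10.8% and 11.6% of all genes), 1 and 1 of 12 in the stomach (13.2% and 11.4%), 3 and 2 of 9 in muscle (8.96% and 5.8%), and 1 and 1 of 12 in the tongue (5.17% and 7.33%). Mtf1 and Slc30a1 are named for their role, after their values were seen. Mtf1, the metal sensor, had log2 fold changes of 0.12, -0.13, -0.35 and -0.38 in heart, stomach, muscle and tongue, and Slc30a1, a zinc exporter that answers to it, 0.08, -0.26, -0.62 and -0.49. In muscle the zinc importer Slc39a14 had 24.6, 11.4 and 9.48 CPM in controls and 123, 90.8 and 98.7 CPM in SN-011 samples (2.78, edgeR adjusted p = 0.0764). Mt4, the metallothionein of squamous epithelium, had 11.4, 13.0 and 6.90 CPM in control stomachs and 62.9, 35.2 and 39.4 CPM in SN-011 stomachs (2.14, edgeR adjusted p = 0.0618). The SN-011 samples were above the controls in both cases. Summed squamous markers of the same stomachs were 249, 251 and 120 CPM in controls and 1622, 541 and 994 CPM in SN-011 samples. Within each group Mt4 had the same order as these sums, and the part of squamous content in its change was not tested.

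Other pathways that share members were counted in the same fits. In the heart, Bnip3 of the hypoxia list (log2 fold change 1.58, edgeR adjusted p = 0.00894) and Lrg1 of the STAT3 and acute phase list (1.05, 0.0416) rose, while the clock repressor Nr1d1 (-1.30, 0.0444) and the chemokine Cxcl10 (-1.49, 0.0332) fell. The call of Bnip3 was lost without SN-011 sample 1 or 2, and those of Lrg1, Nr1d1 and Cxcl10 without SN-011 sample 1, 2 or 3. Those of Lrg1 and Cxcl10 were also lost without control 3, and that of Nr1d1 without control 1. The highest edgeR adjusted p with 1 sample left out was 0.0766 for Bnip3, 0.181 for Lrg1 and Nr1d1 and 0.194 for Cxcl10, and all 4 calls were lost in the joint fit. No other gene of those lists or of 14 immediate early genes passed in any tissue. The hypoxia list had medians of 0.43, -0.0019, -0.21 and 0.08 in heart, stomach, muscle and tongue, with 8, 5, 4 and 7 genes above 0. At an unadjusted p under 0.05, 6 of 10 hypoxia genes were higher and 0 lower in the heart (10.8% and 11.6% of all genes), 2 higher and 3 lower in the stomach (13.2% and 11.4%), 3 and 0 in muscle (8.96% and 5.8%), and 0 and 1 in the tongue (5.17% and 7.33%). Of 10 interferon genes 6, 9, 6 and 9 were lower in heart, stomach, muscle and tongue, with medians of -0.48, -1.16, -0.98 and -0.92, and 1, Usp18, was higher in muscle. Of 13 clock genes, 3 were higher and 1 lower in hearts, 3 and 1 in stomachs, 2 and 3 in muscles, and 1 and 3 in tongues, with medians of 0.20, 0.50, 0.11 and 0.08. Of the 12 STAT3 and acute phase genes, 2 were higher and 2 lower in hearts, 3 and 0 in stomachs, 3 and 1 in muscles, and 3 and 2 in tongues, with medians of 0.21, 0.74, 0.64 and 0.22. The 14 immediate early genes had 2 and 2, 1 and 3, 4 and 2, and 1 and 2, in the same order of tissues. Among the clock genes, Nr1d1 was at -1.71, -0.84 and -2.37 in stomach, muscle and tongue (edgeR adjusted p = 0.163, 0.311 and 0.221).

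Markers of the tissue itself and of other cells moved with some of these results, and their part in them was not tested. Summed CPM of 5 red blood cell genes, none at 0, was 492 to 1395 in control hearts and 1373 to 2506 in SN-011 hearts. All 5 had log2 fold changes above 0 in every tissue. Of them 3, 1, 3 and 0 were higher at an unadjusted p under 0.05 in heart, stomach, muscle and tongue. The shares of all genes that were higher were 10.8%, 13.2%, 8.96% and 5.17%. Control 1 had the highest red blood cell sum among the controls in all 4 tissues, as it did for most members. The 6 adipocyte genes summed to 576 to 834 CPM in control hearts and 1041 to 1219 CPM in SN-011 hearts, and to 61.1 to 187 and 195 to 239 CPM in the stomach, with no overlap in either tissue. Most of these sums was Fabp4, which endothelium also expresses (log2 fold change 0.72 in the heart and 1.14 in the stomach), while 1 of 4 genes tested in the heart and 3 of 5 in the stomach were above 0, with medians of -0.41 and 0.18. They summed to 281 to 1314 CPM in control muscle and 707 to 1522 CPM in SN-011 muscle, which overlapped, and control 1 was again the highest control. In the tongue the adipocyte genes summed to 552, 131 and 120.5 CPM in controls 1, 2 and 3 and to 390 to 489 CPM in SN-011 samples, and the squamous genes to 13433, 44751 and 66374 CPM and to 16988 to 25757 CPM, so that without control 1 neither sum overlapped. The 7 gastric genes summed to 116 to 1105 CPM in control hearts 2 and 3, against 3.02 to 33.9 CPM in the SN-011 hearts, and to 1503 to 1529 CPM in control tongues 2 and 3, against 8.18 to 19.6 CPM. In control 1 those sums were 11.4 CPM in the heart and 44.0 CPM in the tongue. In muscle the gastric genes summed to 30.7, 431 and 187 CPM in controls 1, 2 and 3. The SN-011 muscles had at most 16.2 CPM. At an unadjusted p under 0.05, 5 of 5 tested gastric genes were lower in the heart, 5 of 5 in muscle and 6 of 6 in the tongue. Of all genes, 11.6%, 5.8% and 7.33% were lower in heart, muscle and tongue.

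In the stomach the same gastric genes summed to 28462 to 95403 CPM in controls and 5682 to 35155 CPM in SN-011 samples, and 6 squamous genes to 120.1 to 251 and 541 to 1622 CPM, which did not overlap. Of the squamous genes, 5 of 6 were higher at an unadjusted p under 0.05 (13.2% of all genes). In the same stomachs, 5 smooth muscle genes summed to 1100.3 to 6232 CPM in controls and 5113 to 10276 CPM in SN-011 samples, which overlapped, while in the heart (2744 to 3434 and 4054 to 4543 CPM) and muscle (4355 to 4606 and 5057 to 6057 CPM) those sums did not. B and plasma cell genes summed to 326 to 779 CPM in control stomachs and 173 to 246 CPM in SN-011 stomachs, with no overlap. In such bulk samples fewer cells of a type and less RNA per cell cannot be told apart. Heart muscle genes had 6 of 6 log2 fold changes above 0 in the heart, with a median of 0.47. Of them, 3 were higher at an unadjusted p under 0.05 (10.8% of all genes). Skeletal muscle genes in muscle summed to 122991 to 137258 CPM in controls and 147699 to 177590 CPM in SN-011 samples, with no overlap. There 5 of 6 were above 0, with a median of 0.28, and 1 was higher at an unadjusted p under 0.05 (8.96% of all genes). Skeletal muscle genes summed to 393, 9.79 and 15.4 CPM in stomach controls 1, 2 and 3 and to 268, 201 and 149 CPM in SN-011 stomachs, so control 1 was the highest of the 6. Endothelial genes in muscle summed to 188 to 233 CPM in controls and 132 to 164 CPM in SN-011 samples, with no overlap and 0 of 4 above 0. The 5 genes of the exocrine pancreas summed to 150.5 CPM in muscle SN-011 sample 2 and to at most 1.90 CPM in the other muscles. Without that sample Fkbp5, Tsc22d3, Mt1, Ddit4 and Cebpd in muscle had log2 fold changes of 1.46, 1.26, 1.93, 2.36 and 2.31, beside 1.40, 1.34, 2.30, 2.21 and 2.36 with it.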

How the data were processed

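RNA-Seq read counts per gene were taken as deposited, 1 file per sample. The authors made these raw counts from strand-specific polyA+ libraries, by trimming, alignment to mm10 with HISAT2 and counting of uniquely mapped pairs. The study's methods name featureCounts and the submitters' processing notes name HTSeq, and the setting for strand is not given in the sources used here. Totals were 14253416 to 18443329 counts per sample, where 3 counts are 0.163 to 0.210 CPM, which limits low genes. Intervals were not drawn from reads, since counting error is only part of the spread.

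Within each tissue, genes passing filterByExpr (minimum count 10, minimum total 15) were scaled by TMM and tested with edgeR 4.0.16 (quasi-likelihood, R 4.3.3), 3 against 3, with p-values of all tested genes adjusted by Benjamini-Hochberg and a threshold of 0.05. Differences between tissues came from 1 fit of all 24 samples. The study applied edgeR after TMM as well. Alternatives were DESeq2 1.42.0 and its size factors, library size alone, other filters, edgeR's exact test, a replicate block, a joint fit, and leaving out each sample. The code was tested on simulated data. Levels between genes were divided by exonic length. All 10 members were named, and from each other list the genes past the threshold and otherwise at most 4 per tissue with the smallest p. Like genes were the 3 with the highest r per member. A gene of that ranking is not reported here. The members and lists were chosen with earlier results of these data known.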

Additional observations from a re-analysis of the deposited data

Results flagged for a closer look

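The change after SN-011 differed between tissues for 2 members, by the test of the difference itself. For Zbtb16 the log2 fold change in the stomach exceeded that in muscle by 3.36 (edgeR adjusted p = 0.0305). For Mt1 the difference, stomach minus muscle, was -3.05 (edgeR adjusted p = 0.0419). Stomach values of Mt1 had the order of the summed gastric markers within each group, and the part of tissue content was not tested. The call of Zbtb16 was lost without muscle control 1, 2 or 3, stomach control 2, or stomach SN-011 sample 1 or 3, and that of Mt1 in 17 of 24 fits that left out 1 library, with the direction kept in each.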

How the results depend on the processing

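Of the 39 member fold changes, 32 were above 0 in every fit. Members past the threshold in the heart (1) numbered 7 with no filter (1888 of 30288 genes passed). With at least 10 counts in every sample there were 2 (265 of 14437). There were 4 with DESeq2 (8.43% of all genes), 3 with the exact test (5.68%) and 0 in the joint fit (1 of 19731). In the stomach (0) there were 3 with no filter (1368 of 27444), 4 with DESeq2 (14%) and 4 with the exact test (10.8%). The replicate block gave 1 in the stomach (Zbtb16, where 181 of 17031 genes passed) and the joint fit 2 (2738 of 19731). In muscle (0) DESeq2 gave 4 (6.2%) and the exact test 3 (3.37%), and in the tongue (0) 3 (2.52%) and 2 (1.53%). Leaving out 1 sample, hearts gave 0 to 5, stomachs 0 to 1, muscles 0 to 2 and tongues 0 to 5. The tissue differences past the threshold (2) were 1 with library size alone. They were 3 with no filter, 3 with DESeq2 and 3 with a replicate block by mouse. Without the 4 controls numbered 1 they were 4, and without 1 sample 0 to 4. The cause of these moves was not tested.

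Over all genes, the calls (137 in the heart, 0 in the stomach, 2 in muscle, 0 in the tongue) were 1361, 2389, 880 and 418 with DESeq2, 918, 1835, 479 and 253 with the exact test, 1888, 1368, 110 and 18 with no filter, and 1, 2738, 474 and 4 in the joint fit. With at least 10 counts in every sample they were 265, 126 and 75 in heart, stomach and muscle. Library size alone gave 249 in the heart and 1 in muscle, DESeq2's size factors 1 in muscle, and the replicate block 242, 181 and 0. Leaving out 1 sample gave 1 to 787, 0 to 64, 0 to 1103 and 0 to 2135.

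Library size alone moved the median of all genes to -0.16, 0.18 and -0.31 in heart, stomach and muscle. The sign turned for 7 of the 39 fold changes. In the stomach Errfi1 was 0.0033 with library size alone, Dusp1 was 0.19 with library size alone and 0.14 with the replicate block, and Sgk1 was -0.0388 with DESeq2's size factors, -0.0389 with DESeq2, -0.0426 in the joint fit and -0.00044 with no filter. In muscle Zbtb16 was -0.0262 with DESeq2's size factors, -0.0274 with DESeq2, -0.0266 with the stricter filter, -0.19 with library size alone, -0.16 with the replicate block and -0.0191 in the joint fit. Dusp1 in muscle was -0.0370 with DESeq2's size factors, -0.0376 with DESeq2, -0.0375 with the stricter filter, -0.0444 in the joint fit, -0.20 with library size alone and -0.0532 with the replicate block. Leaving out 1 sample, values ran from -0.0682 to 0.36 for Dusp1 in the heart, from -0.54 to 0.14, -0.30 to 0.51, -1.24 to 0.0765 and -0.51 to 0.77 for Errfi1, Sgk1, Mt1 and Dusp1 in the stomach, and from -0.30 to 0.40 and -0.31 to 0.29 for Zbtb16 and Dusp1 in muscle.

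The numbers gave no pairing, since same-numbered samples of the 2 groups had a mean correlation of -0.05, 0.06, 0.04 and -0.31 in heart, stomach, muscle and tongue. Depth limits Mt2, at 2 to 138 counts per sample, and Zbtb16 in control stomachs, at 7 to 18 counts, which left no value for Zbtb16 there with at least 10 counts in every sample.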
